A study of Caenorhabditis elegans with 3 samples.

Results

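The symbol ceh is given to homeobox genes of Caenorhabditis elegans, and binding of the chromatin protein EGL-27 at 61 of them was examined. They were chosen by name, with earlier results of these data known. They are the protein-coding genes of the Ensembl annotation (WBcel235) whose symbol begins with ceh-, without the Hox gene ceh-13 and the PBX-type gene ceh-20. The annotation has 19973 protein-coding genes on the nuclear chromosomes. EGL-27, a worm protein of the MTA family, whose members are subunits of the chromatin remodeller NuRD, was immunoprecipitated with its bound DNA, which was then sequenced (ChIP-seq). There were 3 biological replicates, which form a single group. The animals were whole L2 larvae of strain OP177, genotype unc-119(ed3) III; wgIs177, males and females pooled, in which a transgene encodes EGL-27 with a GFP-FLAG tag at its C-terminus. All replicates carried the same transgene and the same unc-119 allele. The labels name neither the promoter of the transgene nor the age of the larvae in hours. With DNA from whole larvae, binding in a few cells and weaker binding in many cannot be told apart.

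Homeobox genes encode transcription factors that bind DNA through the homeodomain, a fold of helices of which the last contacts bases. In the worm they specify embryonic lineages, organs such as the pharynx, and the identities of single neuron classes, and many are active in few cells. The ceh genes fall into the classes known from other animals, among them ONECUT genes with a cut domain beside the homeodomain, paired-like genes, POU, sine oculis-type and LIM genes, and a large group of Antennapedia-related and NK-like genes.

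EGL-27 was found at 3 of the 61 ceh genes (4.92%, beside 11.2% of all protein-coding genes): ceh-38 and ceh-39, both of the ONECUT class, and ceh-8, a paired-like gene homologous to Rx. The strongest region stood at the 5' end of ceh-38 and was the only one of the 3 that ranked high in every replicate. The ceh-39 region lay upstream of its gene near the lower limit of the peak set, and the ceh-8 region lay at the far 3' end of its gene, within the upstream window of a collagen gene. The other 58 ceh genes had no summit of the reproducible peak set in the promoter window, the gene body or the upstream gap. Here the peak set is the authors' list kept at an optimal irreproducible discovery rate (IDR), with 1997 regions, each with a signal value whose scale the files do not name (lowest 34.8, median 50.8, highest 378). A summit is the point of highest signal within a region. The promoter window reached from 1000 bp before the gene's 5' end to 200 bp past it, and the upstream gap from the 5' end to the next protein-coding gene.

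DNA under the 2 promoter summits and under ceh-27 and ceh-89, the genes with the strongest promoter regions that missed the peak set, is printed because the promoter results below rest on these regions. Windows of 201 bp centred on each summit were searched for short sites, in the RefSeq genome sequence of WBcel235 (ce11), read 5' to 3' along the gene. The windows of ceh-39 and ceh-89 are given whole. For ceh-27 the 122 bp upstream of its 5' end are given, and for ceh-38, whose window lies mostly in a 5' UTR, 30 bp at the summit. Capitals mark matches, on either strand, to 6 short sites. A GATA site was searched as AGATAA and a GAGA repeat as GAGAGA. The homeodomain core was searched as TAATTA. For the cut domain the core ATCGAT was searched, and beside it the variant core ATTGAT. The PBX-type site was searched as TGATNNAT, which can overlap a variant cut core.
ceh-38 (chrII:6951590-6951619, plus strand): agtattgtgagtgtcagacataaccagcaa
ceh-39 (chrX:1856267-1856467, minus strand): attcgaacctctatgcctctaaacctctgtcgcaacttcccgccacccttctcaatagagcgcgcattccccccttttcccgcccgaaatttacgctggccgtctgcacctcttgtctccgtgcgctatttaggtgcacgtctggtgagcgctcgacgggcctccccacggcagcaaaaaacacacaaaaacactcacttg
ceh-27 (chrV:11665103-11665224, minus strand): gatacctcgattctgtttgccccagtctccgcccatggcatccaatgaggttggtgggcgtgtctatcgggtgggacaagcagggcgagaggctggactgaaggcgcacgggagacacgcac
ceh-89 (chrX:14141380-14141580, plus strand): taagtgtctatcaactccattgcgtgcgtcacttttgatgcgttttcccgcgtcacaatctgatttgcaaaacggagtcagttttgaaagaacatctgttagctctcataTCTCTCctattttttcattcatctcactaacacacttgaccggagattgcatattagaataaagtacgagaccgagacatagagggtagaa
Among these sites the whole ceh-38 window held 1 match, a cut core (ATCGAT) that begins 75 bp downstream of the summit, outside both the stretch printed and the called region. The ceh-39 window held none. The ceh-27 and ceh-89 windows each held 1 GAGA repeat. It was 78 bp downstream of the summit in ceh-27, past the stretch printed, and 10 bp downstream in ceh-89, there on the opposite strand. The window of ceh-74, the next strongest promoter region, which overlaps a gene and is not printed, held 4 GAGA matches. Of the 1997 windows centred on IDR summits, 8.5% held the cut core, 15.5% the variant cut core, 49.3% the GAGA repeat, 12.5% the GATA site, 4.7% the homeodomain core and 11.1% the PBX-type site. Of 19973 promoter windows of the same length, reaching from 150 bp before the 5' end to 50 bp past it, the shares were 9.0%, 21.9%, 15.6%, 15.2%, 10.4% and 16% in the same order. Neither ONECUT window held the GAGA repeat. The E-box CANNTG was searched as well and was present in 60.7% of summit windows and 55.8% of promoter windows, and each ONECUT window held 1 match, in ceh-38 outside the stretch printed and in ceh-39 left in lower case. G+C made up 48.3% of the ceh-38 window, 55.7% of the ceh-39 window, 55.2% of the ceh-27 window and 40.3% of the ceh-89 window, beside a median of 44.3% over all summit windows and 34.3% over all promoter windows.

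The region at ceh-38 was among the strongest promoter regions in the peak set. It spanned 131 bp (ce11, chromosome II, 6951537 to 6951667) and had a signal of 135, rank 97 of 1997. Only 52 of the 1207 genes with an IDR summit in their promoter window had a stronger one, and the median over those genes was 53.6. The gene ceh-38 (WBGene00000459, II, 6951526 to 6955409, plus strand) is one of several ONECUT genes of the worm. The summit stood 79 bp downstream of its annotated 5' end, in a 5' UTR. Of 24 annotated ceh-38 transcripts, 3 start upstream of the summit and 21 downstream of it, so that the summit was 14 to 465 bp upstream of those later starts. The divergent neighbour malt-1 begins close by, and the same summit stood 305 bp upstream of its 5' end (II, 6947855 to 6951300, minus strand). A region this near to both starts cannot be assigned to one gene by position.

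Every replicate listed the ceh-38 region near the top. Its signal was 13.5 in replicate 1, 51.3 in replicate 2 and 68.9 in replicate 3, on scales that differ between the lists. By rank it was 149 of 13245 regions in replicate 1, 136 of 30000 in replicate 2 and 97 of 30000 in replicate 3, a mean rank of 127 ± 27.1 (SD, n = 3). The replicates placed the summit at 81, 35 and 86 bp downstream of the 5' end. The nearest other IDR summit was 16.9 kb away. The egl-27 gene is on the same chromosome, and its nearer end (6847908) was 104 kb away.

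The region at ceh-39 was weaker and was not listed in every replicate. The gene ceh-39 (WBGene00000460, X, 1853874 to 1856172, minus strand) is one of the X signal elements, by which embryos count X chromosomes. The region (X, 1856192 to 1856541) had its summit 195 bp upstream of the 5' end and a signal of 36.5, rank 1824 of 1997. Replicate 1 did not list it, replicate 2 listed it with signal 14.2 (rank 2347), and replicate 3 with signal 23.4 (rank 1322). It was therefore among the 1997 strongest regions of replicate 3 alone. In replicate 1 a different region of the same upstream gap, centred in the pooled list 2631 bp upstream of the gene, had a signal of 5.91 (rank 1736).

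The neighbours of ceh-39 include 2 further ONECUT genes in the same orientation, ceh-21 (X, 1848779 to 1852736) and ceh-41 (X, 1846608 to 1848675), with T26C11.9 between ceh-39 and ceh-21. Neither had an IDR summit. In the pooled list, which the authors made from all replicates and which includes background regions, ceh-21 had 1 region with a signal of 7.36 and ceh-41 had none. The nearest IDR summit to both was that of ceh-39, 3.63 kb from the 5' end of ceh-21 and 7.69 kb from that of ceh-41.

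At ceh-8 the summit was far from the 5' end. The region (I, 8245418 to 8245767) had a signal of 49.8, rank 1040 of 1997, and its summit was 5355 bp downstream of the 5' end of ceh-8 (WBGene00000433, I, 8245505 to 8250948, minus strand), in the 3' UTR and 88 bp from the 3' end of the gene. The same summit stood 630 bp upstream of the 5' end of col-63, a cuticle collagen gene (I, 8243694 to 8244963, minus strand), and the promoter window of col-63 was the only one it entered. The signal was 4.90 in replicate 1 (rank 2891), 17.4 in replicate 2 (rank 1652) and 35.3 in replicate 3 (rank 606), a mean rank of 1716 ± 1144 (SD, n = 3). Replicates 2 and 3 had it among their 1997 strongest regions and replicate 1 did not.

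**Figure D1:**
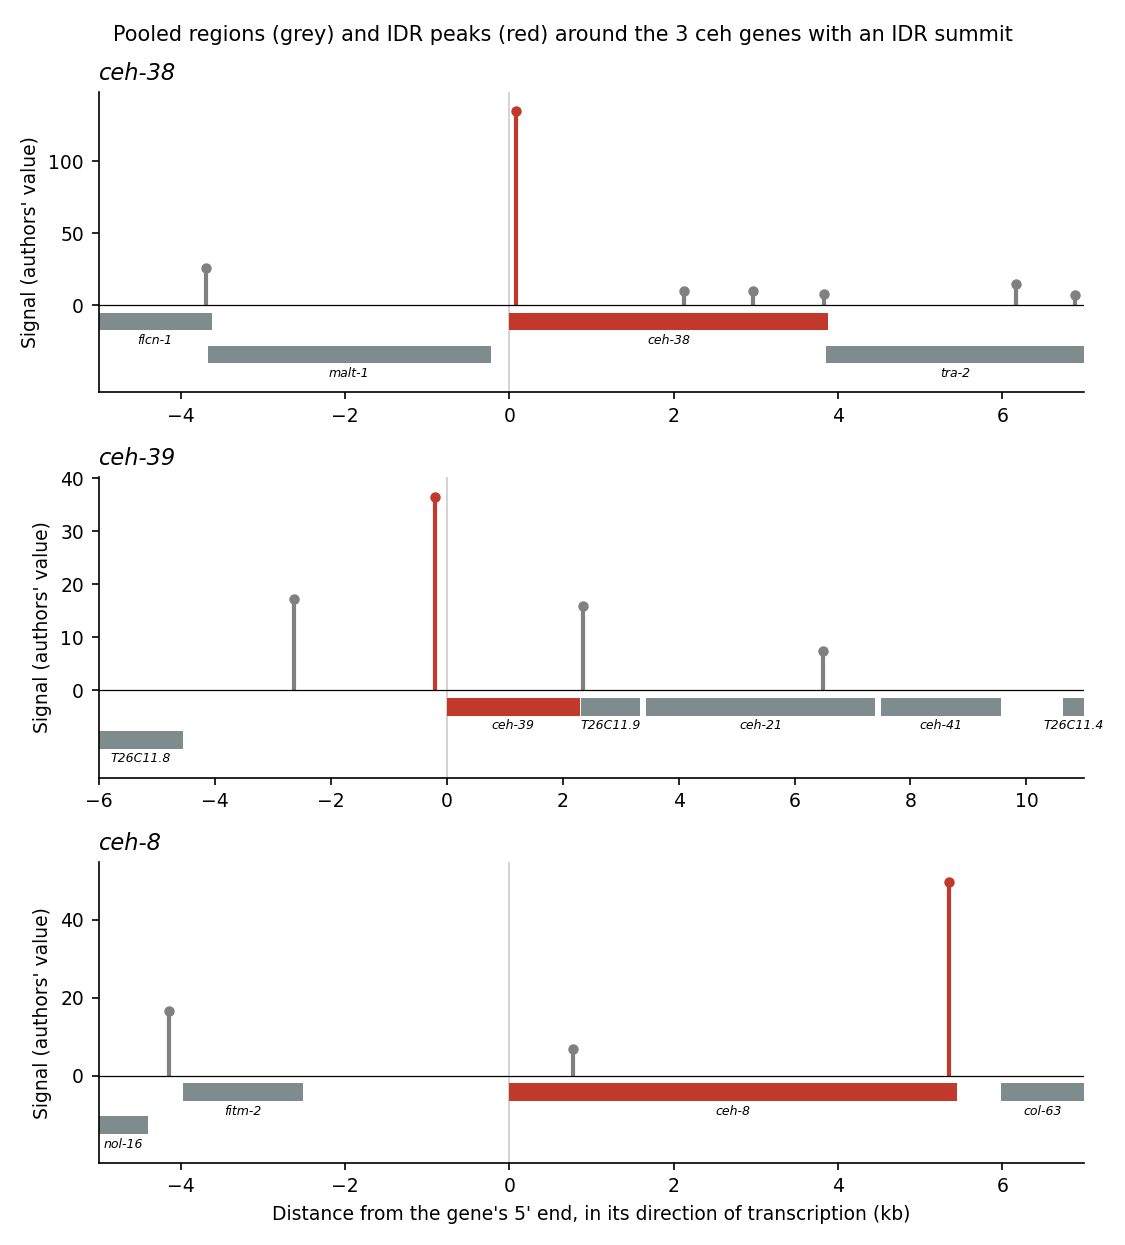
Pooled regions (grey) and IDR peaks (red) around ceh-38, ceh-39 and ceh-8, with the distance from the gene's 5' end in kb on the x axis and the authors' signal on the y axis. Boxes under each plot are protein-coding genes, the upper row transcribed to the right. The ceh-38 and ceh-39 peaks stand within 200 bp of the 5' end, with signals of 135 and 36.5, and the ceh-8 peak stands 5355 bp downstream, next to col-63.

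**Figure D2:**
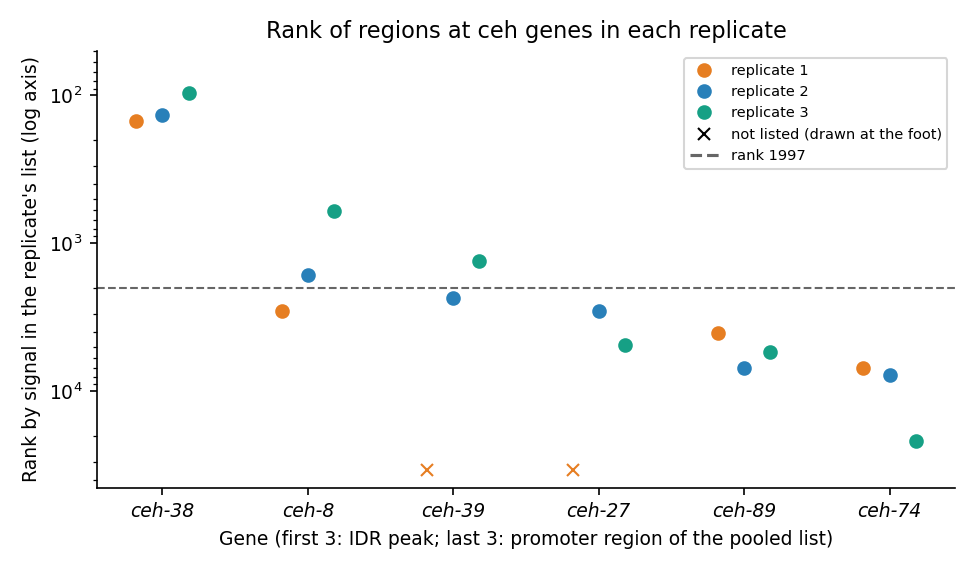
Rank by signal in each replicate's list (log axis, low ranks at the top) for the 3 IDR peaks at ceh genes and for the 3 strongest promoter regions of ceh genes without an IDR summit. The dashed line is rank 1997, and crosses mark regions that a replicate did not list. Only ceh-38 is above the line in all replicates.

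Counted over all members, an IDR summit was present at 3 of 61 genes (4.92%), beside 11.2% of all protein-coding genes. At the latter share 6.86 members would carry one. By place, 2 members had a summit in the promoter window (3.28%, beside 6.04% of all genes), 2 in the gene body (3.28%, beside 2.38%) and 1 in the upstream gap (1.64%, beside 8.79%). The promoter count stayed at 2 when a summit was given only to the nearest 5' end, where the share of all genes was 4.57%. At the shares of all genes, 3.69 members would have a promoter summit, 1.45 a gene body summit and 5.36 a summit in the gap. The promoter and gene body counts are within 2 genes of these values, while the gap count (1) and the count for any place (3, beside 6.86) are lower by more than that. The bound of 2 genes is descriptive only. Every summit in the gap also counts for any place, so those 2 counts are not separate results. No test of the list was made, since the genes were grouped by name with earlier results known.

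The sequence searched was longer for ceh genes than for genes in general. The median upstream gap was 1771 bp for the members and 937 bp for all genes, and the median gene length 2818 bp and 2027 bp. Together the 3 places covered 0.440 Mb over the members and held 3 summits, or 6.82 per Mb. Over all genes there were 2749 pairs of a gene and a summit in 117 Mb, or 23.5 per Mb, where a summit between neighbours counts for each. The distance from a gene's 5' end to the nearest IDR summit had the same median in both, 21.5 kb (quartiles 10.1 and 40.6 kb for the members, 7.82 and 47.9 kb for all genes). A summit lay within 10 kb of the 5' end for 15 members (24.6%) and for 29.7% of all genes.

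In the longer pooled list the ceh genes did not stand below protein-coding genes in general. Of its 30000 regions, 144 had their summit at a ceh gene, and 45 of 61 members had at least 1 (73.8%, beside 64.6% of all genes). In the promoter window 25 members had one (41%, beside 40.1%). Per searched Mb there were 330 pairs of a gene and a pooled summit for the members and 311 for all genes. Of the 144 regions 2.08% belonged to the IDR set, while 6.66% of the whole pooled list did. Their median signal was 10.3, beside 10.7 for the whole list. Replicates 1, 2 and 3 listed 22.9%, 65.3% and 63.2% of them, beside 22.2%, 60.6% and 64.0% of all pooled regions. The ceh genes thus had about as many regions of low signal as genes in general and a smaller share of regions above the IDR limit, a difference that was not tested.

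**Figure D3:**
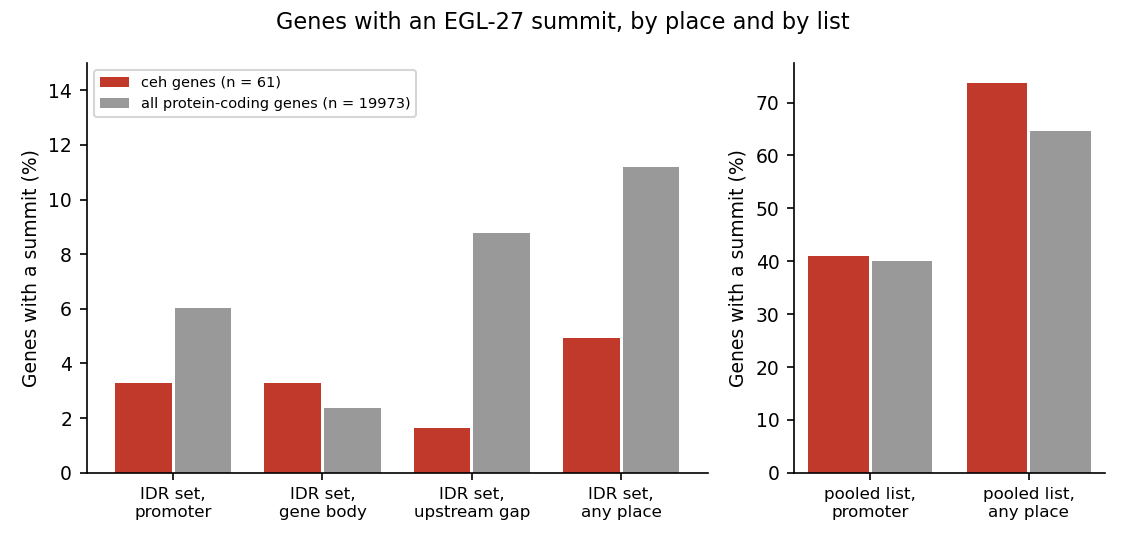
Share of genes with a summit, in percent, for the 61 ceh genes (red) and all 19973 protein-coding genes (grey), by place in the IDR set (left) and in the pooled list (right, different scale). In the IDR set the members are at 4.92% and all genes at 11.2% for any place, and in the pooled list at 73.8% and 64.6%.

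Below the IDR limit of 34.8, 10 members had a strongest pooled region with a signal of 20 or more, 20 members one from 10 to 20 and 12 members one under 10. These classes were counted for members only. Of the genes with a pooled region, the strongest reached the limit in 6.67% of members, beside 17.4% of all genes. The 3 members without an IDR summit that had the strongest promoter regions were ceh-27, ceh-89 and ceh-74. At ceh-27, an NK-2 type gene, the region (V, 11664949 to 11665298) had a signal of 28.4 with its summit 22 bp upstream of the 5' end. It was rank 2871 in replicate 2 and rank 4866 in replicate 3, and replicate 1 did not list it. At ceh-89 the signal was 26.6, with the summit 466 bp upstream (X, 14141305 to 14141654), and ranks of 4017, 6981 and 5442 in replicates 1, 2 and 3. The ceh-74 region had a signal of 17.8, with the summit 234 bp upstream (V, 14177670 to 14178019), and ranks of 6948, 7772 and 21671. None of these 3 promoter regions was among the 1997 strongest of any replicate.

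Outside promoter windows, the region nearest to the limit was 4060 bp upstream of ceh-58, with a signal of 30.6 (II, 10373482 to 10373831), named here after its value was seen. It was among the strongest 1997 regions of replicate 3 (signal 19.8, rank 1787), at rank 4513 in replicate 2, and not listed in replicate 1. The gap upstream of ceh-58 is 15735 bp long and the gene had 10 pooled regions in all. More than 5 pooled regions were also present at ceh-18 (13), ceh-43 (12), ceh-86 (9), ceh-37 (8) and ceh-62 (7), likewise named after their counts were seen. The sequence searched was long at each of them, at 26037, 16195, 16913, 17601 and 10132 bp in the same order. The median over the members was 5.62 kb. Genes in general with more than 5 pooled regions were not counted. Among these members, ceh-18 is a POU gene that acts in the gonadal sheath, ceh-43 is the Distal-less homologue and ceh-37 an Otx-type gene. Their strongest pooled regions had signals of 13.5 for ceh-18, 22.3 for ceh-43 and 24.5 for ceh-37.

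**Figure D4:**
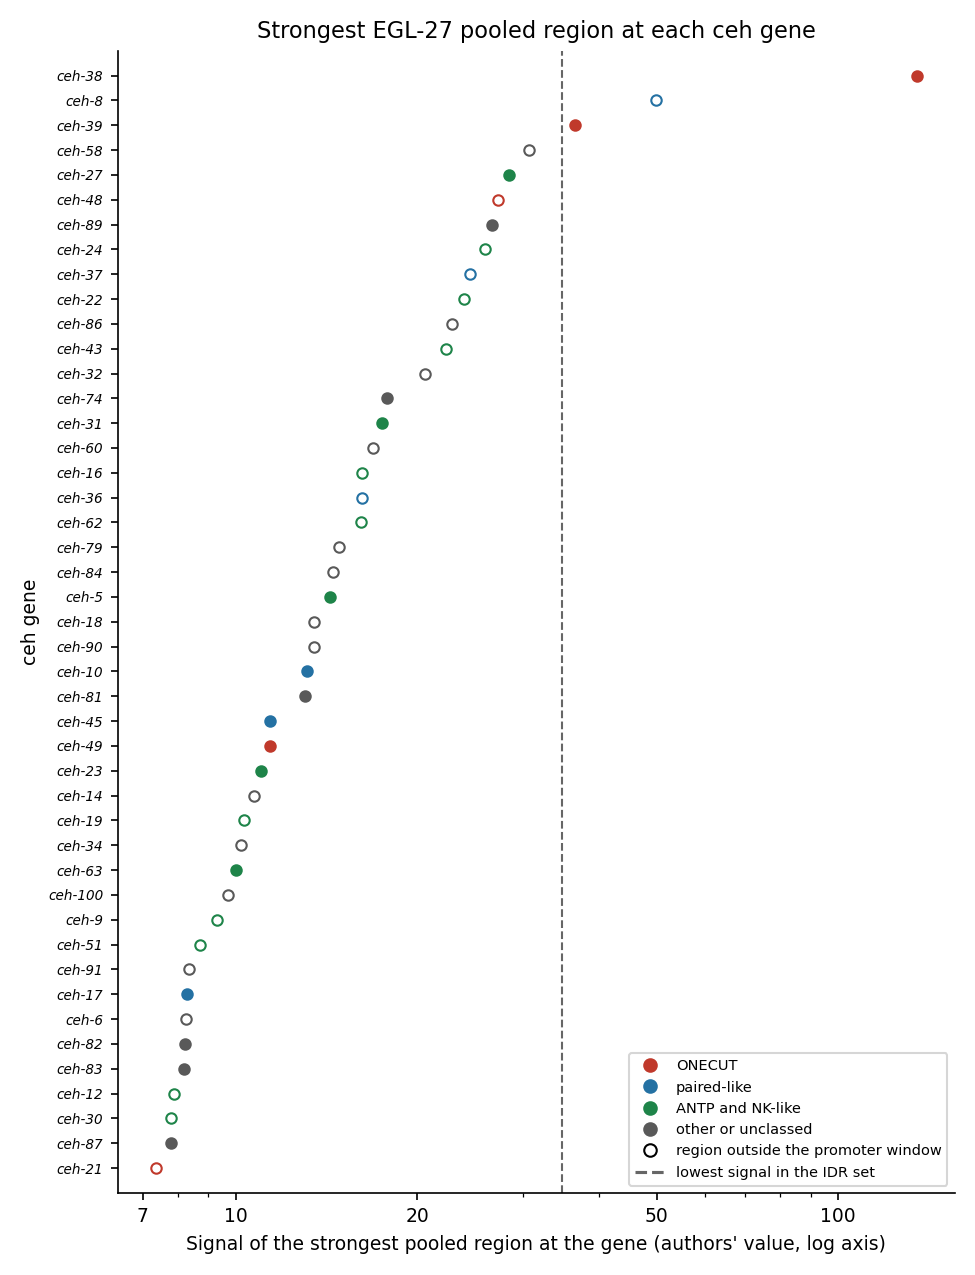
Signal of the strongest pooled region (authors' value, log axis) at each of the 45 ceh genes that had one, ordered by signal and coloured by homeodomain class. Filled points lie in the promoter window and open points in the gene body or upstream gap. The dashed line is the lowest signal in the IDR set (34.8), which 3 genes exceed.

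A total of 16 ceh genes had no pooled region in any of the 3 places, while 45 had one (73.8%, beside 64.6% of all genes). A region was thus absent less often at ceh genes than at genes in general, which was not tested. The 16 were ceh-1, ceh-2, ceh-7, ceh-28, ceh-33, ceh-40, ceh-41, ceh-53, ceh-54, ceh-57, ceh-75, ceh-76, ceh-88, ceh-92, ceh-93 and ceh-99. Their median searched length was 4.48 kb, and that of the 45 members with a region was 6.85 kb. The set includes ceh-2, the homologue of empty spiracles, and ceh-40, a gene of the PBC class that also holds ceh-20. The pooled list ends at a signal of 6.68. In the replicates' own lists, whose scales differ, 14 of the 16 had a region in at least 1 replicate. The strongest region of a gene within a replicate had a signal from 2.22 to 6.88. All replicates listed one at ceh-33 (2.22, 3.37 and 4.57) and at ceh-99 (2.40, 4.27 and 6.55), and none did at ceh-7 and ceh-28.

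By homeodomain class, the ONECUT genes held both promoter summits. Of 6 ONECUT genes 2 had one, ceh-38 and ceh-39, beside 6.04% of all genes for the promoter window. For any of the 3 places the share of all genes was 11.2% in the IDR set and 64.6% in the pooled list, and in classes this small counts of 0 or 1 say little beside those shares. The other ONECUT genes were ceh-48, with a strongest pooled region of 27.2, ceh-49 with 11.4, ceh-21 with 7.36, and ceh-41 with none. Those of ceh-48 and ceh-49 were at 2120 bp upstream and within the promoter window. With 6 genes, of which 3 are neighbours on X, this count describes these genes and was not tested. Of 8 paired-like genes 1 had an IDR summit, that of ceh-8 in the gene body. The 20 Antennapedia-related and NK-like genes had 0 IDR summits and 15 of them a pooled region, the strongest being that of ceh-27. Among them were the engrailed homologue ceh-16, which acts in the seam (strongest pooled signal 16.2), and ceh-22, an NK-2 gene of pharyngeal muscle (23.9). The 2 POU, 3 sine oculis-type, 2 PBC and 1 LIM genes also had 0 IDR summits. Their strongest pooled signals were 13.5 (POU, ceh-18), 20.6 (sine oculis-type, ceh-32), 16.9 (PBC, ceh-60) and 10.7 (LIM, ceh-14). The 19 members placed in no class had 0 IDR summits, and 13 of them had a pooled region.

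The ceh genes lie more often on X than genes in general, with 18 of 61 there (29.5%, beside 13.7% of all protein-coding genes), and 13 on II, 12 on V, 8 on I, 6 on III and 4 on IV. Of the 18 on X, 1 had an IDR summit (ceh-39; 5.56%, beside 16.5% of all genes on X) and 12 had a pooled region (66.7%, beside 76.1%). Of the 43 on autosomes 2 had an IDR summit (4.65%, beside 10.4% of all autosomal genes) and 33 a pooled region (76.7%, beside 62.8%). These counts were not tested.

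In the replicates' own lists ceh-38 was the only ceh gene among the strongest regions of all 3. When each replicate's 1997 strongest regions were used, the promoter windows of 2 members held a summit in replicate 1 (ceh-38 and ceh-48, 3.28% beside 3.88% of all genes), of 1 member in replicate 2 (ceh-38, 1.64% beside 6.05%) and of 2 members in replicate 3 (ceh-38 and ceh-39, 3.28% beside 5.69%). The mean over replicates was 2.73% ± 0.946 of the members and 5.20% ± 1.16 of all genes (SD, n = 3). For any of the 3 places, replicate 1 gave 8 members (13.1%, beside 10.8% of all genes), replicate 2 gave 1 (1.64%, beside 11.2%) and replicate 3 gave 5 (8.20%, beside 10.8%), a mean of 7.65% ± 5.76 of members (SD, n = 3). In replicate 1 these were ceh-6, ceh-18, ceh-36, ceh-38, ceh-39, ceh-48, ceh-58 and ceh-100, and in replicate 3 ceh-8, ceh-24, ceh-38, ceh-39 and ceh-58. The ceh-8 region was among the strongest of replicate 2 as well (rank 1652) but is not in its count. Its summit in that replicate was 5486 bp downstream of the 5' end, past the end of the gene, which is 5444 bp long. Replicate 1 has the shortest list (13245 regions) and stands apart from the others in that it listed 60.1% of the IDR peaks, beside 99.5% in replicate 2 and 99.6% in replicate 3. The share of all genes was 10.9% ± 0.234 (SD, n = 3), so that the members' mean for any place differed from it by less than the spread of the members' share between replicates. For the promoter window the members' share was lower than that of all genes in each of the 3 replicates. At the shares of all genes, 2.36, 3.69 and 3.47 members would have held a summit, beside the 2, 1 and 2 found. The spreads given here are between lists for the same 61 genes. They do not measure the uncertainty of the members' share, and no difference was tested.

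Other homeobox genes, those with symbols outside the ceh series and outside the Hox cluster and its cofactors, were counted in the same way. Of 31 such genes 4 had an IDR summit in any of the 3 places (12.9%, beside 11.2% of all genes) and 1 in the promoter window (3.23%, beside 6.04%). The promoter summit was 628 bp upstream of hmbx-1 (signal 36). The rest, named after their values were seen, lay far upstream. For the LIM gene lin-11 the summit was 12943 bp upstream (signal 53.3) and for the LIM gene lim-7 9586 bp upstream (signal 37.4). The sine oculis-type gene unc-39 had 2 summits, 6344 and 4642 bp upstream (signals 54.5 and 52.3). No ceh gene had a summit that far upstream in its gap, the only gap summit being that of ceh-39 at 195 bp.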

How the data were processed

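EGL-27 ChIP-seq was carried out by the submitters in whole L2 larvae, in 3 biological replicates per the labels. Where nothing else is said, values come from the ce11 IDR set. Per the file headers and notes, each replicate's alignments and a control gave a list of regions that includes background, the replicates together gave a pooled list, and the authors derived the IDR set from all of these. No aligner, peak caller or IDR threshold is given in the sources used here. For each region there is a signal value deposited by the authors without a named scale, a −log10 q-value deposited by the authors, which is the same for every IDR peak (3.65), and a summit. Depth is unknown, as no file has read numbers, and counting error could not be given. The control and the ce10 lists were not used here.

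Gene positions and types were taken from Ensembl release 115, and sequence from the RefSeq genome of the same assembly, WBcel235, whose chromosome lengths contain every region. A summit was counted for every gene in whose promoter window (1000 bp upstream to 200 bp downstream), body or upstream gap it lay. A gap ends at the nearest protein-coding gene on either strand. Replicate support of an IDR peak needed a shared base (1 bp or more) with a region of that replicate's list, and the strongest such region was used. The search for summits was run on simulated summits drawn from the same windows of known genes. Such planted summits cannot reveal a window that was set wrongly. Python 3.11.15, numpy 2.4.6, pandas 2.3.3 and matplotlib 3.10.9 were used. No p-value was computed: there is a single group, and genes and peaks are not replicates.

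The members, the homeodomain classes (from general knowledge) and the list of other homeobox genes were chosen with earlier results of these data known. The listed gene ceh-44 matched no protein-coding symbol in the annotation and was not analysed here. The genes named are all members with an IDR summit, the 3 others with the strongest promoter region in the pooled list, all ONECUT genes, and other homeobox genes with a promoter summit. Any further gene was named once its value had been seen. Alternatives tried were the stronger 50% of IDR peaks, IDR peaks among the 1997 strongest regions of every replicate, the pooled list, each replicate left out in turn (keeping IDR peaks found among the strongest regions of both others, IDR was not recomputed here), whole intervals in place of summits, promoters of 500 and 2000 bp, the nearest 5' end only, the 5' ends of all transcripts, and gaps that end at a gene of any type.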

Additional observations from a re-analysis of the deposited data

How the results depend on the processing

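The ceh-38 region was the only one at a ceh gene kept by every choice of peaks. The counts of members with a summit in the promoter, the body, the gap and any place, and of peaks, were 2, 2, 1, 3 and 3. Both the stronger 50% of IDR peaks and the IDR peaks among the strongest regions of all 3 replicates gave 1, 1, 0, 1 and 1, from ceh-38 alone, while the share of all genes with a summit in any place fell to 6.01% and 3.06%. For the promoter window 1 member was 1.64%, beside 3.28% and 1.58% of all genes. For the body it was 1.64%, beside 1.16% and 0.681%. The gap shares of all genes were 4.73% and 2.29%. The whole pooled list gave 25, 30, 27, 45 and 144. Leaving out each replicate in turn gave 1 promoter in each case, 1 to 2 bodies, 0 gaps, and 1 to 2 genes and 1 to 2 peaks in any place, with ceh-8 remaining beside ceh-38 without replicate 1 (2 genes, 3.28%, beside 7.28% of all genes) and ceh-38 alone without replicate 2 (beside 3.33%) or replicate 3 (beside 3.47%). Without replicates 1, 2 and 3 in turn, the 1 promoter (1.64%) was beside 3.87%, 1.71% and 1.77% of all genes. The promoter shares were thus near each other without replicate 2 or 3. For the body, the members' shares in the same order were 3.28%, 1.64% and 1.64%, beside 1.53%, 0.721% and 0.766% of all genes. For the gap, the members' share was 0 each time, beside 5.61%, 2.52% and 2.62% of all genes. These sets are smaller by construction, and leaving out replicate 2 or 3 makes support from replicate 1 necessary. Whole intervals, promoters of 500 bp, the nearest 5' end, the 5' ends of all transcripts and gaps to any gene type left the members' counts unchanged, but the shares of all genes moved. With whole intervals the body share of all genes rose from 2.38% to 4.35%, above the members' 3.28%. The promoter share of all genes was 4.74% with promoters of 500 bp. Promoters of 2000 bp added ceh-5, for 3 promoters (4.92%, beside 8.12% of all genes) and 4 genes in any place (6.56%, beside 12.1%). No paired analysis was possible because there is a single group. Single genes decide counts as small as these, and unknown depth limits what an absent region means.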

Other observations

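Of the 144 pooled regions at ceh genes, 59 had their summit in the gene body, of which 37 were in introns, 15 in coding exons, 5 in 3' UTRs and 2 in 5' UTRs, and 85 lay outside the gene. All replicates listed 16 of the 144. These counts were made at ceh genes only, so they do not set ceh genes apart from others. By gene, 30 members had a pooled summit in the body (49.2%, beside 42.1% of all genes). The sex determination gene tra-2 (II, 6955384 to 6965673) lies tail to tail with ceh-38 on the opposite strand and overlaps its 3' end, and no IDR summit lay in the body of ceh-38 other than the one near its 5' end.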
